A study of Mus musculus with 38 samples.

Results

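The 37 genes described here were chosen as genes of the tubule from the thick ascending limb of the loop of Henle to the collecting duct. Whether each is confined to that stretch was not tested. They were taken by gene symbol from an RNA-seq table of 21705 rows, and all 37 were found. The thick ascending limb group holds 7 genes, the distal convoluted and connecting tubule group 11, the collecting duct principal cell group 12 and the intercalated cell group 7. The table covers 38 mouse libraries in 10 groups. Normal kidney (n = 5) came from wild-type mice given vehicle, and the title prefix was B6 in 2 and KT in 3 of them. MYC tumours (genotype MYC+) comprise 3 libraries from 2 mice, since 2 of them carry the mouse number 2983, and these 2 were averaged before each test. VM tumours (Vhl-/-; MYC +) and VIM tumours (Vhl-/-; MYC +; Ink-/-/Arf-/-) comprise 3 libraries of 3 mice each. The MYC-2983, VM and VIM cell lines, of which the study calls the last 2 VM-3055 and VIM-3039, were grown from such tumours and were kept on doxycycline (Dox) or taken off it, with 4 libraries per line and condition. By the methods, the lines were cultured in Dox, and RNA was collected the day after plating with or without it. The comparison is thus of continued Dox with its recent removal, and effects of longer removal were not measured. In all these tumours and lines, MYC is a Dox-inducible transgene whose activator is driven by the Ksp (Cdh16) promoter, which is active in tubule cells. In VM and VIM mice the same promoter drove a tamoxifen-inducible Cre that deleted Vhl, and the Ink4a/Arf deletion of VIM mice was in the germline. Tumour mice received Dox, and VM and VIM mice also tamoxifen, so tumour state and these agents cannot be told apart in a comparison with vehicle-treated kidney. Each line is 1 tumour, and neither the labels nor the methods say that its 4 libraries per condition came from separate cultures, so p-values within a line measure only the spread between these samples.

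The tubule beyond the proximal segment reclaims salt and water by a different set of proteins in each stretch. The thick ascending limb takes up sodium, potassium and chloride together and secretes uromodulin, the distal convoluted tubule takes up sodium chloride through the thiazide-sensitive transporter, and the connecting tubule adds calcium reabsorption. In the collecting duct, principal cells carry the vasopressin-regulated water channels and the epithelial sodium channel under aldosterone, and intercalated cells carry proton pumps and anion exchangers that set acid and base excretion.

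Of the 37 genes, 28 had a promoter window in the RefSeq table for GRCm38.p6, 34 windows in all, each from 250 bases before to 50 bases after a transcript start. The letters GTTAAT, with ATTAAC on the opposite strand, were searched because they form part of the recognition sequence of HNF1 factors, which act in kidney tubules. They stood in 7.1% of all 32851 windows of the table and in 4 of the 34 windows of these genes, which belong to Umod, Kcnj16, Atp6v0a4 and Atp6v1g3. The E-box CACGTG, a sequence that MYC can bind, stood in 7.15% of all windows and in 1 of the 34, that of Aqp2. The forkhead letters TGTTTAC or GTAAACA stood in 3.65% of all windows and in 4 of the 34, those of Slc12a1, Egf, Atp6v1b1 and Avpr2. The 250 bases before the start are shown for 3 genes with the HNF1 letters that behaved differently below, Umod being close to absent from VM tumours while Kcnj16 and Atp6v0a4 were still measured in every library. The capitals mark the letters searched.
Umod, chr7:119479263-119479512, minus strand: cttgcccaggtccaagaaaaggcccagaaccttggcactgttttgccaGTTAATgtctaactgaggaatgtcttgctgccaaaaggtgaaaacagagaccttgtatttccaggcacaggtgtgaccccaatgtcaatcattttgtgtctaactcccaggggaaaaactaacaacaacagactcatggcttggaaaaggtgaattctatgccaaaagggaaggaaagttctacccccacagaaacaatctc
Kcnj16, chr11:110967783-110968032, plus strand: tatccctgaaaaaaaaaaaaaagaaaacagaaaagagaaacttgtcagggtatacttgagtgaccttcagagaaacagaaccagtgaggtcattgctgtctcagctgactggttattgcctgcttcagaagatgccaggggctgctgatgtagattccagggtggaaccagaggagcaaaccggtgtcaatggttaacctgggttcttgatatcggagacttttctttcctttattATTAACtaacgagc
Atp6v0a4, chr6:38124587-38124836, minus strand: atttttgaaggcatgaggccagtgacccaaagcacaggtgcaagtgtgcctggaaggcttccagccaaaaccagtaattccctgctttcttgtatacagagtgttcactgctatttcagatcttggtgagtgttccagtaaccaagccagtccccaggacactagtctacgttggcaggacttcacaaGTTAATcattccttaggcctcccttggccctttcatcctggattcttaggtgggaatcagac
Counted from the start, the first letter lay at -202 in Umod, at -62 in Atp6v0a4 and, on the opposite strand, at -14 in the window of Kcnj16 shown. The letters describe the sequence only.

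Values are given in units of the deposited table, in which the upper quartile of each library was set to 1000. They are not divided by transcript length, so levels are compared between samples and not between genes. The estimated depth was 12.4 to 36.6 M reads (M, mega) in the cell lines, 8.22 to 15.4 M in the tumours and 11.8 to 15.5 M in normal kidney. The value of 3 reads, used here as the floor of detection, was 1.16 to 5.65 units over all libraries. The Cdh16 promoter drives the activator of the MYC transgene and the Cre. Cdh16 was at 16888 to 23962 units in kidney, 6526 to 14725 in tumours and 3464 to 13110 in the cell lines. Vhl was at 612 to 772 units in kidney and 468 to 560 in MYC tumours, but at 40.2 to 79.9 in VM tumours, 219 to 312 in VIM tumours and 8.32 to 38.8 in VM and VIM cells. Cdkn2a, the Ink4a/Arf gene, was at 30.1 to 95.5 units in VIM tumours and 24.9 to 40.8 in VIM cells, against 3392 to 4347 in VM tumours and 59.3 to 2872 in MYC tumours. The Myc row was lower with Dox than without it in each line, for example 651 to 699 against 1764 to 1868 units in MYC-2983 cells. Whether that row counts reads of the transgene is not stated, so it does not check the Dox labels.

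The loop, distal tubule and collecting duct genes were far lower in tumours than in normal kidney. A gene passed where the limma test gave an adjusted p below 0.05 and its log2 change exceeded 1 in size. By this rule 34 of 37 members were lower in MYC tumours, 36 in VM tumours and 34 in VIM tumours, and none was higher. The share of all tested genes that passed as lower was 17.7%, 22.5% and 20.7% in the same order, and as higher 19.4%, 17.3% and 18.9%. The median change of the members was -7.00, -8.47 and -5.60 on the log2 scale, where that of all genes tested was 0.12, -0.05 and 0.01. In VM tumours 9 members were at 0 in all 3 libraries, and with those at the bound that the floor allows the VM median was -7.72. The MYC median was -5.61 without MYC tumour 1 and -8.02 without mouse 2983, and the VIM median -7.27 without VIM tumour 2, so these medians do not order the genotypes. A total of 32 members passed as lower in all 3 genotypes, Ppp1r1a, Tfcp2l1 and Atp6v0d2 in 2 of them, and Trpm6 and Elf5 in 1. Every tumour library lay under every kidney library for 35 members in MYC, 33 in VM and 33 in VIM tumours. How many of all genes separated in this way was not counted, so these counts describe the members only. In a tissue library, fewer cells of a type and less RNA per cell cannot be told apart. Against the 2 B6 kidneys alone, 34, 33 and 26 members passed as lower, and against the 3 KT kidneys 36, 35 and 34. The shares of all genes that passed in these smaller fits are not given here. A lower count there is thus not a result about the members or the prefix.

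**Figure D1:**
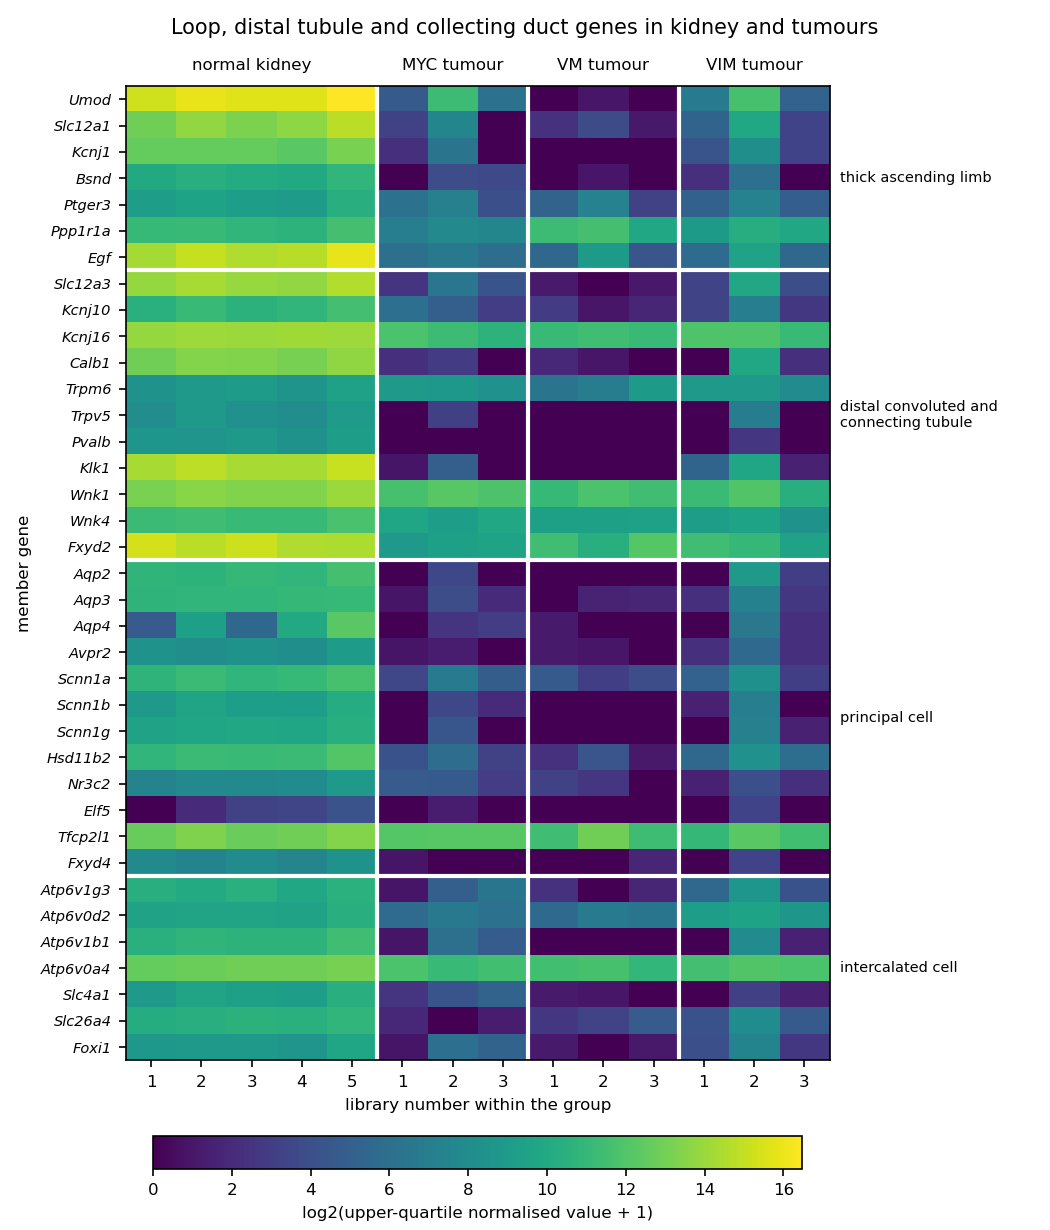
Each column is a kidney or tumour library, each row a member gene ordered along the tubule, and the colour gives log2(value + 1) of the upper-quartile normalised value. The 5 kidney columns are bright for nearly all rows, the tumour columns dark, and VIM tumour 2 is the brightest tumour column, highest of the 9 for 29 of 37 members. This count was not made over all genes.

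The median change of the thick ascending limb genes was -8.40 in MYC, -9.94 in VM and -7.51 in VIM tumours on the log2 scale. All 7 passed as lower in MYC and VIM tumours and 6 in VM tumours. Umod (chr7:126606380-126622769 in mm9, minus strand), which encodes uromodulin, was at 40327, 62219, 51458, 51876 and 91620 units in the 5 kidneys. It was at 24.3, 2475 and 74.9 units in MYC tumours, at 0, 1.03 and 0 in VM tumours and at 109, 3228 and 34.9 in VIM tumours. No tumour library came near a kidney library, and the tumours themselves were spread widely. Umod fell by 8.32 on the log2 scale in MYC tumours (SE 1.20, adjusted p = 0.000732) and by 7.94 in VIM tumours (SE 1.15, adjusted p = 0.00032). In VM tumours it also passed (adjusted p = 1.54e-09), but the fitted size there rests on about 1 read and on the value of 1 added before the log. The 2 MYC tumour libraries of mouse 2983 differed widely, with 2475 units in MYC tumour 2 and 74.9 in MYC tumour 3.

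Slc12a1, the sodium-potassium-chloride transporter that furosemide blocks, was at 7709, 14527, 9645, 13363 and 28571 units in the kidneys. The MYC tumours held 8.40, 187 and 0 units, the VM tumours 3.99, 12.4 and 1.23, and the VIM tumours 39.5, 931 and 9.18. The groups of kidney and tumour libraries did not overlap. Its change was -8.80 in MYC (SE 0.810, adjusted p = 8.48e-05), -11.29 in VM (SE 0.556, adjusted p = 3.56e-07) and -7.51 in VIM tumours (SE 1.16, adjusted p = 0.000485). Egf, the precursor of epidermal growth factor, was at 19513, 33368, 23602, 27388 and 59309 units in the kidneys. It was at 67.2, 100.3 and 57.9 units in MYC, 43.9, 514 and 19.7 in VM and 52.7, 736 and 45.9 in VIM tumours. Each genotype thus kept under 1% of the kidney mean, namely 0.23%, 0.59% and 0.852%. Its changes were -8.67, -8.59 and -7.94 (SE 0.382, 0.858 and 0.806; adjusted p = 3.17e-06, 2.59e-05 and 3.94e-05). Kcnj1, the potassium channel ROMK, and Bsnd, the chloride channel subunit barttin, also passed as lower in each genotype.

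Ptger3 and Ppp1r1a were lowered less. Ptger3, a prostaglandin E2 receptor, was at 592, 747, 594, 559 and 1360 units in the kidneys, 71.8, 145 and 15.5 in MYC, 37.3, 158 and 8.63 in VM and 33.9, 160 and 29.4 in VIM tumours. It did not overlap with kidney in any genotype and fell by 3.24, 4.22 and 3.71 on the log2 scale (SE 0.340, 0.732 and 0.533; adjusted p = 0.000154, 0.000828 and 0.00031). Ppp1r1a, an inhibitor of protein phosphatase 1, was at 2106, 2161, 1829, 1601 and 3130 units in the kidneys. It was at 129, 219 and 189 units in MYC tumours, but at 2546, 3097 and 909 in VM tumours and 505, 1239 and 923 in VIM tumours. The VM libraries lay across the kidney range, so that the mean was 101% of the kidney mean, and the change did not pass (-0.13, SE 0.371, adjusted p = 0.793). It passed in MYC (-3.69, SE 0.273, adjusted p = 3.36e-05) and VIM tumours (-1.34, SE 0.29997, adjusted p = 0.00416). The VIM call was lost without VIM tumour 1 (-0.98) and against the B6 kidneys alone (-1.24).

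**Figure D2:**
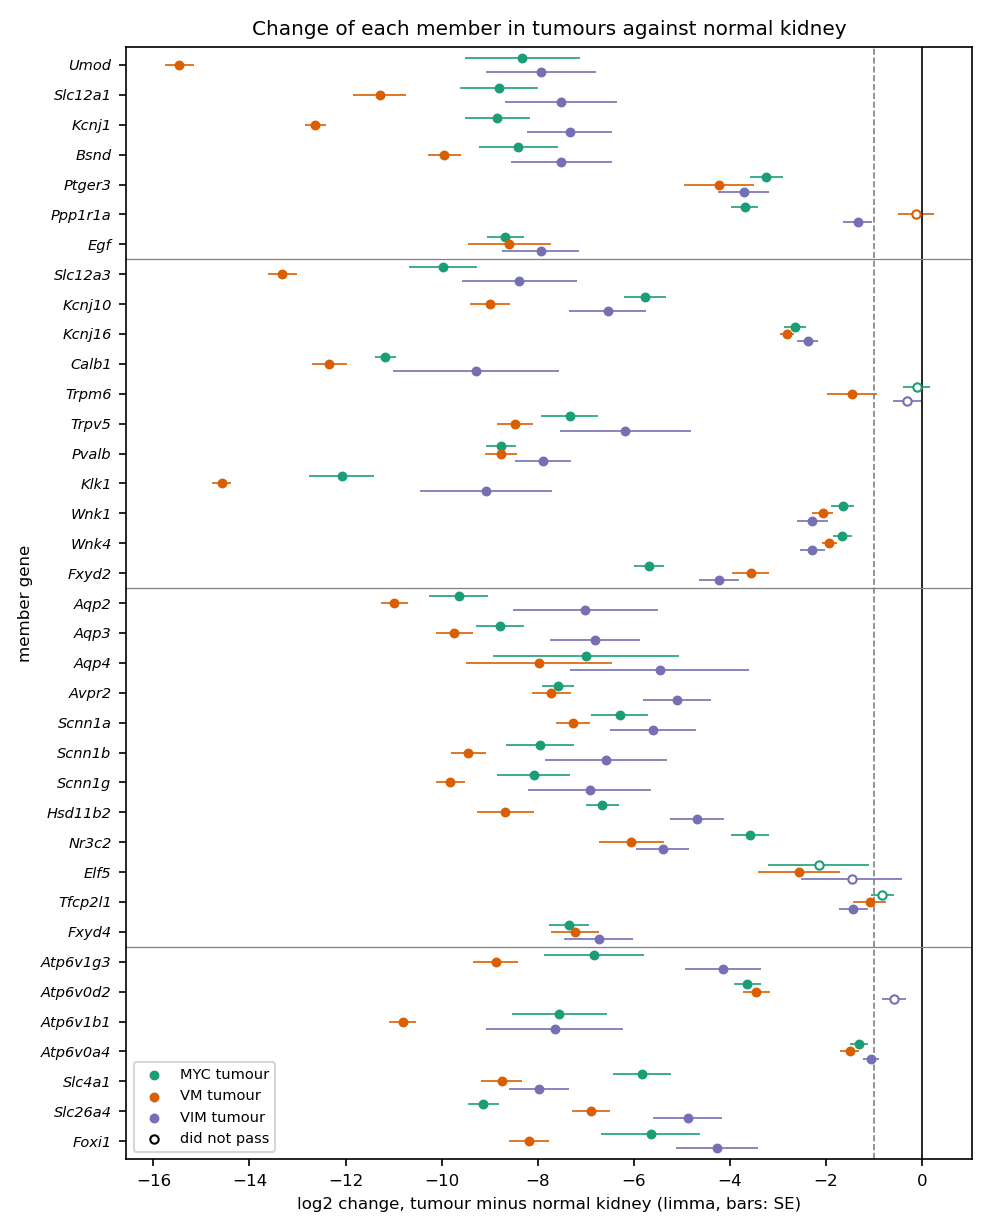
Points give the limma log2 change of each member in MYC, VM and VIM tumours against normal kidney, bars the SE, and open circles mark changes that did not pass. All points lie below 0, and the members nearest to 0 are Trpm6, Ppp1r1a, Atp6v0d2, Tfcp2l1 and Atp6v0a4; where a tumour group was at 0 the plotted size depends on the value of 1 added before the log.

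The distal convoluted and connecting tubule group split into genes that were almost lost and genes that were still well measured. Their median was -5.76 in MYC, -8.47 in VM and -6.18 in VIM tumours, and 10, 11 and 10 of 11 passed as lower. Slc12a3, the thiazide-sensitive sodium chloride transporter, was at 15223, 20488, 15600, 14073 and 25046 units in the kidneys. It was at 4.66, 89.5 and 18.4 units in MYC tumours, 1.33, 0 and 1.23 in VM tumours and 9.42, 899.8 and 14.7 in VIM tumours. All tumour libraries were under all kidneys (MYC change -9.97, SE 0.713, adjusted p = 2.88e-05; VIM change -8.39, SE 1.20, adjusted p = 0.000295), and VM tumours, with at most about 1 read per library, passed too (adjusted p = 3.78e-09). Klk1, tissue kallikrein of the connecting tubule, was at 20564, 28964, 20979, 20235 and 34349 units in the kidneys. It was at 0.933, 30.9 and 0 units in MYC and 39.5, 808 and 1.84 in VIM tumours, and at 0 in all 3 VM tumours. VM tumours were therefore at least 6263-fold lower than kidney, the bound being set by the highest 3-read floor of the 3 libraries. Klk1 belongs to a family of near-identical genes, between which reads may be divided uncertainly. Fxyd2, the gamma subunit of the sodium-potassium pump, was at 43135, 27854, 37600, 23179 and 22412 units in the kidneys, 478, 664 and 744 in MYC, 2738, 1292 and 4529 in VM and 2791, 1986 and 731 in VIM tumours. The groups did not overlap, and its changes were -5.68, -3.56 and -4.22 (SE 0.309, 0.384 and 0.413; adjusted p = 8.77e-06, 4.17e-05 and 3.21e-05).

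Kcnj16, Wnk1, Wnk4 and Trpm6 kept at least 10% of their kidney mean in each genotype. Whether their RNA came from distal tubule cells was not tested. Kcnj16 (chr11:110829347-110889282 in mm9), a subunit of the basolateral potassium channel, was at 15218, 17136, 16363, 18148 and 17559 units in the kidneys and at 3535, 2520 and 1588 in MYC, 2186, 2794 and 2245 in VM and 3870, 3905 and 2234 in VIM tumours. The tumours did not overlap with kidney, and Kcnj16 fell by 2.64, 2.82 and 2.38 on the log2 scale (SE 0.229, 0.144 and 0.212; adjusted p = 6.43e-05, 4.41e-07 and 1.88e-05). The kinases Wnk1 and Wnk4, which control the sodium chloride transporters, were at 32.9% and 30.7% of their kidney mean in MYC, 23.9% and 25.9% in VM and 22.2% and 21.3% in VIM tumours. Both passed as lower in each genotype, with changes from -1.65 to -2.28. Trpm6, the magnesium channel of the distal convoluted tubule, was at 337, 492, 526, 365 and 688 units in the kidneys. It was at 492, 432 and 328 units in MYC, 78.6, 119 and 512 in VM and 456, 469 and 251.5 in VIM tumours. The ranges of kidney and tumours overlapped in every genotype. The change was -0.11 in MYC tumours (SE 0.284, adjusted p = 0.777) and -0.30 in VIM tumours (SE 0.293, adjusted p = 0.409), neither of which passed. The VM call (-1.46, SE 0.526, adjusted p = 0.0385) was lost without VM tumour 1 (-0.91), VM tumour 2 (-1.21), or any of kidneys 2 (-1.44), 3 (-1.42), 4 (-1.55) and 5 (-1.32), against either kidney prefix alone (-1.32 and -1.56), and with voom (-1.08).

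The principal cell genes were lower by a median of -7.18 in MYC, -7.85 in VM and -5.53 in VIM tumours, and 10, 12 and 11 of 12 passed. Scnn1a, the alpha subunit of the epithelial sodium channel, was at 1673, 2406, 1885, 2153 and 3268 units in the kidneys. It was at 10.3, 111 and 28.2 units in MYC, 23.97, 7.22 and 13.6 in VM and 35.8, 312 and 7.34 in VIM tumours, with no overlap with kidney. Its changes were -6.30, -7.27 and -5.60 (SE 0.598, 0.346 and 0.899; adjusted p = 9.66e-05, 2.87e-07 and 0.000602). Hsd11b2, which inactivates glucocorticoids and so leaves the mineralocorticoid receptor to aldosterone, was at 1832, 2387, 2233, 2370 and 4213 units in the kidneys. It was at 16.8, 58.6 and 8.47 units in MYC, 3.99, 19.6 and 1.23 in VM and 45.2, 321 and 60.6 in VIM tumours. None of the 9 tumour libraries reached a kidney library, and Hsd11b2 changed by -6.66, -8.67 and -4.69 (SE 0.347, 0.597 and 0.557; adjusted p = 7.06e-06, 2.52e-06 and 9.84e-05). Aqp2, the vasopressin-regulated water channel, was at 0 in all 3 VM tumours and thus at least 522-fold below kidney. It was at 0, 10.8 and 0 units in MYC tumours and 0, 464 and 7.34 in VIM tumours, against 1645 to 3185 in kidney (named after its values were seen).

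The other principal cell genes described here include 2 transcription factors and the receptor for aldosterone. Nr3c2, the mineralocorticoid receptor, was at 168, 239, 226, 244 and 455 units in the kidneys, 25.2, 24.7 and 7.06 in MYC, 7.99, 5.15 and 0 in VM and 1.88, 15.04 and 3.67 in VIM tumours. It lay below every kidney in each genotype, and its changes were -3.59, -6.05 and -5.40 (SE 0.395, 0.675 and 0.555; adjusted p = 0.000194, 5.13e-05 and 4.22e-05). Tfcp2l1, a transcription factor of collecting duct cells, was at 6498, 9939, 6635, 7746 and 10975 units in the kidneys. It was at 4487, 4744 and 4726 units in MYC tumours, 2743, 7656 and 2687 in VM tumours and 1987, 4944 and 2864 in VIM tumours. MYC and VIM tumours lay below all kidneys, while VM tumour 2 fell inside the kidney range. The change was -0.83 in MYC tumours, under the size limit of 1 (SE 0.240, adjusted p = 0.0202), -1.09 in VM (SE 0.346, adjusted p = 0.0225) and -1.43 in VIM tumours (SE 0.2998, adjusted p = 0.00292). The VM call was lost without VM tumour 1 (-0.85), VM tumour 3 (-0.83) or kidney 5 (-0.98), with quantile normalisation (-0.64), with voom (-0.66) and against the B6 kidneys alone (-0.78), where the VIM call was lost too (-1.11, adjusted p = 0.0758). Elf5, a transcription factor, was at 0 to 17.7 units even in kidney, so its changes rest on few reads. Aqp4, a basolateral water channel, was at 26.0 and 46.9 units in the B6 kidneys and at 634, 1036 and 4935 in the KT kidneys, and the 2 prefixes did not overlap (named after its values were seen). Whether the prefix, a strain or something else moves with Aqp4 was not tested.

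The intercalated cell genes had medians of -5.83 in MYC, -8.18 in VM and -4.27 in VIM tumours, and 7, 7 and 6 of 7 passed as lower. Atp6v1b1, the proton pump subunit of intercalated cells, was at 1412, 1793, 1598, 1622 and 2816 units in the kidneys. It was at 0.933, 66.4 and 26.8 units in MYC and 0, 250.6 and 1.84 in VIM tumours, and at 0 in all 3 VM tumours, at least 463-fold below kidney. No tumour library overlapped with kidney (MYC change -7.55, SE 0.986, adjusted p = 0.000444; VIM change -7.65, SE 1.43, adjusted p = 0.00146). Slc26a4, the anion exchanger pendrin, was at 1166, 1272, 1564, 1414 and 1807 units in the kidneys, 2.80, 0 and 1.41 in MYC, 5.33, 9.28 and 25.9 in VM and 16.9, 258 and 23.9 in VIM tumours. The kidneys stood apart from all tumours, and its changes were -9.13, -6.89 and -4.87 (SE 0.323, 0.403 and 0.721; adjusted p = 1.17e-06, 9.56e-07 and 0.000365). Foxi1, the transcription factor that specifies intercalated cells, was at 0.933, 64.8 and 36.7 units in MYC, 1.33, 0 and 1.23 in VM and 15.1, 169 and 5.51 in VIM tumours, against 388 to 853 in kidney (named after its values were seen).

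Atp6v0a4 and Atp6v0d2, both subunits of the membrane sector of the proton pump, were kept to a greater degree. Atp6v0a4 (chr6:37998483-38074586 in mm9, minus strand) was at 6267, 7157, 7664, 7630 and 8604 units in the kidneys, 3539, 2218 and 2880 in MYC, 2854, 3280 and 1902 in VM and 3012, 4070 and 3645 in VIM tumours. It did not overlap with kidney and fell by 1.31, 1.51 and 1.06 on the log2 scale (SE 0.187, 0.190 and 0.166; adjusted p = 0.000702, 0.000112 and 0.000501). Its change was under the size limit with quantile normalisation (-0.88 in MYC and -0.76 in VIM tumours) and with voom on estimated reads (-0.83 and -0.77), and in VIM tumours also without VIM tumour 1 (-0.95) and against the B6 kidneys alone (-0.97). The annotation places other genes on both strands within Atp6v0a4, and how strand was used in counting is not stated. Atp6v0d2 (chr4:19803988-19849752 in mm9, minus strand) was at 719.7, 797, 806, 726 and 1273 units in the kidneys. It was at 52.2, 102 and 69.2 units in MYC tumours and 49.3, 105 and 85.1 in VM tumours, but at 565, 748 and 424 in VIM tumours. VIM tumours overlapped with kidney (-0.58, SE 0.243, adjusted p = 0.070, not passed), and MYC and VM tumours did not (-3.64 and -3.45; SE 0.278 and 0.279; adjusted p = 3.77e-05 and 7.03e-06).

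Libraries differed within each tumour group, which bears on every value above. The median over the 37 members, as a percent of the kidney mean, was 0.194, 2.18 and 0.385 in the MYC tumours, 0.153, 0.0838 and 0.0473 in the VM tumours and 0.295, 13.6 and 0.292 in the VIM tumours. VIM tumour 2 was thus far above the other VIM tumours, at 5.43% for the thick ascending limb, 8.86% for the distal convoluted and connecting tubule, 13.4% for principal cells and 32.4% for intercalated cells. The proximal tubule list of 20 genes was at 2.39% in that library and at 0.0297% to 0.725% in the other 8. Whether kidney tissue beside the tumour contributed was not tested. Without VIM tumour 2, 34 members passed in VIM tumours. Kidney 5 was the highest kidney library for 35 of 37 members, at a median of 144.6% of the kidney mean, against 78.4% to 97.2% in the other 4. How many of all genes were highest in kidney 5 was not counted. Other lists moved with the members in that library. The further distal nephron list was at 151.1% against 75.6% to 99.1% in the other kidneys, the podocyte list at 170.5%, the stromal list at 182.7% and the endothelial list at 136.6%, while the proximal tubule list was at 94.4% by its median gene but at 828050 units in sum, under the sums of the other kidneys. The part of these cells in the high values of kidney 5 was not tested. Without kidney 5, VIM tumour 2 and MYC tumour 2, an alternative chosen after seeing the data, 34 members were lower in each genotype. The shares of all genes that passed without these libraries are not given here.

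**Figure D3:**
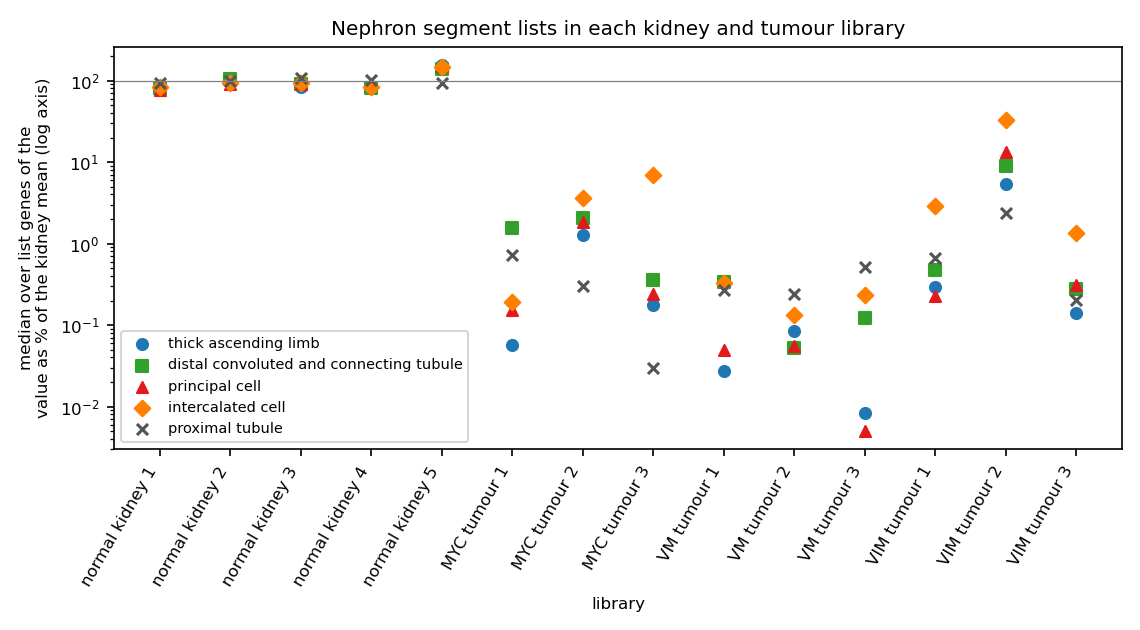
The median over the genes of each segment list, as a percent of the kidney mean on a log axis, is shown for the 5 kidney and 9 tumour libraries, with values under 0.005 drawn at 0.005 (the principal cell median of VM tumour 3, which was 0). VIM tumour 2 is the only tumour library with all 4 member segments above 5%, and in VM tumours all 4 lie under 0.4%.

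The other genes of the same tubule stretches and other cell types were described with the same test. Of 39 further distal nephron genes tested, 25 were lower in MYC, 30 in VM and 26 in VIM tumours, with medians of -3.93, -4.74 and -3.33. Rhcg, an ammonia transporter of the collecting duct, fell by 8.46 on the log2 scale in MYC tumours (SE 1.001, adjusted p = 0.00027) and by 8.53 in VIM tumours (SE 1.34, adjusted p = 0.000517), and was at 0 in all VM tumours. Ckb, the brain-type creatine kinase, was the 1 gene of this list that rose, by 1.24 in VM (SE 0.258, adjusted p = 0.0025) and 1.41 in VIM tumours (SE 0.249, adjusted p = 0.00106). Both genes were named after their values were seen. All 20 proximal tubule genes were lower in each genotype, with medians of -7.74, -8.06 and -6.82. Markers of other cells also moved. Endothelial genes were lower for 7, 6 and 7 of 8, podocyte genes for 3, 4 and 4 of 6, stromal genes for 1, 5 and 2 of 8 and erythroid genes for 3, 2 and 2 of 5. Leukocyte and macrophage genes were higher for 5, 4 and 5 and lower for 0, 2 and 1 of 9, and all 8 proliferation genes were higher in each genotype. The summed level of the leukocyte and macrophage list ran from 1446 to 2461 units in kidney and from 3842 to 18794 in the tumours, and 1 of the 9 genes was at 0 in all VM and 1 in all VIM tumours. The part of these other cells in the change of the members was not tested.

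Few members passed when the tumour genotypes were compared with each other. No member passed between VM and MYC tumours, where 0% of genes passed by limma and 2212 of 16085 had an unadjusted p under 0.05. None passed between VIM and MYC tumours, where 0.00616% of genes passed and 2379 of 16246 had an unadjusted p under 0.05. Between VIM and VM tumours, 0.174% of all genes passed as higher, and Atp6v0d2 was the 1 member among them. Its log2 difference, VIM minus VM, was 2.87 (SE 0.423, adjusted p = 0.0429), and its 3 VIM libraries lay above its 3 VM libraries. The call was lost when any of the 6 libraries was left out, with changes from 2.56 to 3.10 and adjusted p from 0.0558 to 0.251. Atp6v0d2 is also made by macrophages and osteoclasts. Cd68, a macrophage marker, was at 1571, 1024 and 560 units in VIM tumours, 707, 342 and 355 in VM tumours, 715, 281 and 469 in MYC tumours and 27.7 to 43.0 in kidney. Cd68 is 1 gene picked from the leukocyte and macrophage list. That list summed to 8492 to 15495 units in VIM, 3842 to 9800 in VM and 5109 to 18794 in MYC tumours. The part of macrophages in the level of Atp6v0d2 was not tested. Umod was at 0 to 1.03 units in VM and 34.9 to 3228 in VIM tumours, without overlap, but its difference did not pass (7.53, SE 1.48, adjusted p = 0.113). Ppp1r1a did not overlap between MYC and VM tumours either (3.56, SE 0.547, adjusted p = 0.138, not passed). Of the further distal genes, Irx2, a homeobox factor, passed as higher in VIM than in VM tumours, by 5.70 (SE 0.736, adjusted p = 0.0308). VM tumours held at most about 1 read of it, so the size rests on the value of 1 added, and it was named after its values were seen.

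In culture many of the members were not detectable at this depth. A total of 13 members were at or under the floor in all 24 cell libraries, among them Umod, Klk1, Aqp2, Scnn1b, Scnn1g, Atp6v1b1 and Foxi1, and 5 of the 13 (Calb1, Pvalb, Klk1, Atp6v1g3 and Foxi1) were at 0 throughout. Another 8 were above the floor in all 24, namely Egf, Kcnj16, Trpm6, Wnk1, Wnk4, Nr3c2, Tfcp2l1 and Atp6v0a4. Members with every library at or under the floor numbered 22 and 21 in MYC-2983 cells with and without Dox, 21 and 16 in VM cells and 26 and 25 in VIM cells. All genes were not counted against the floor. Above 0 in at least 4 libraries of a line were 21, 23 and 14 of 37 members in MYC-2983, VM and VIM cells. Of all 21705 rows, 15104, 14319 and 13998 were so. Fxyd2, at 478 units or more in every tumour library, was at 0 in all VIM cells with Dox and at 11.97 units at most in any cell library.

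**Figure D4:**
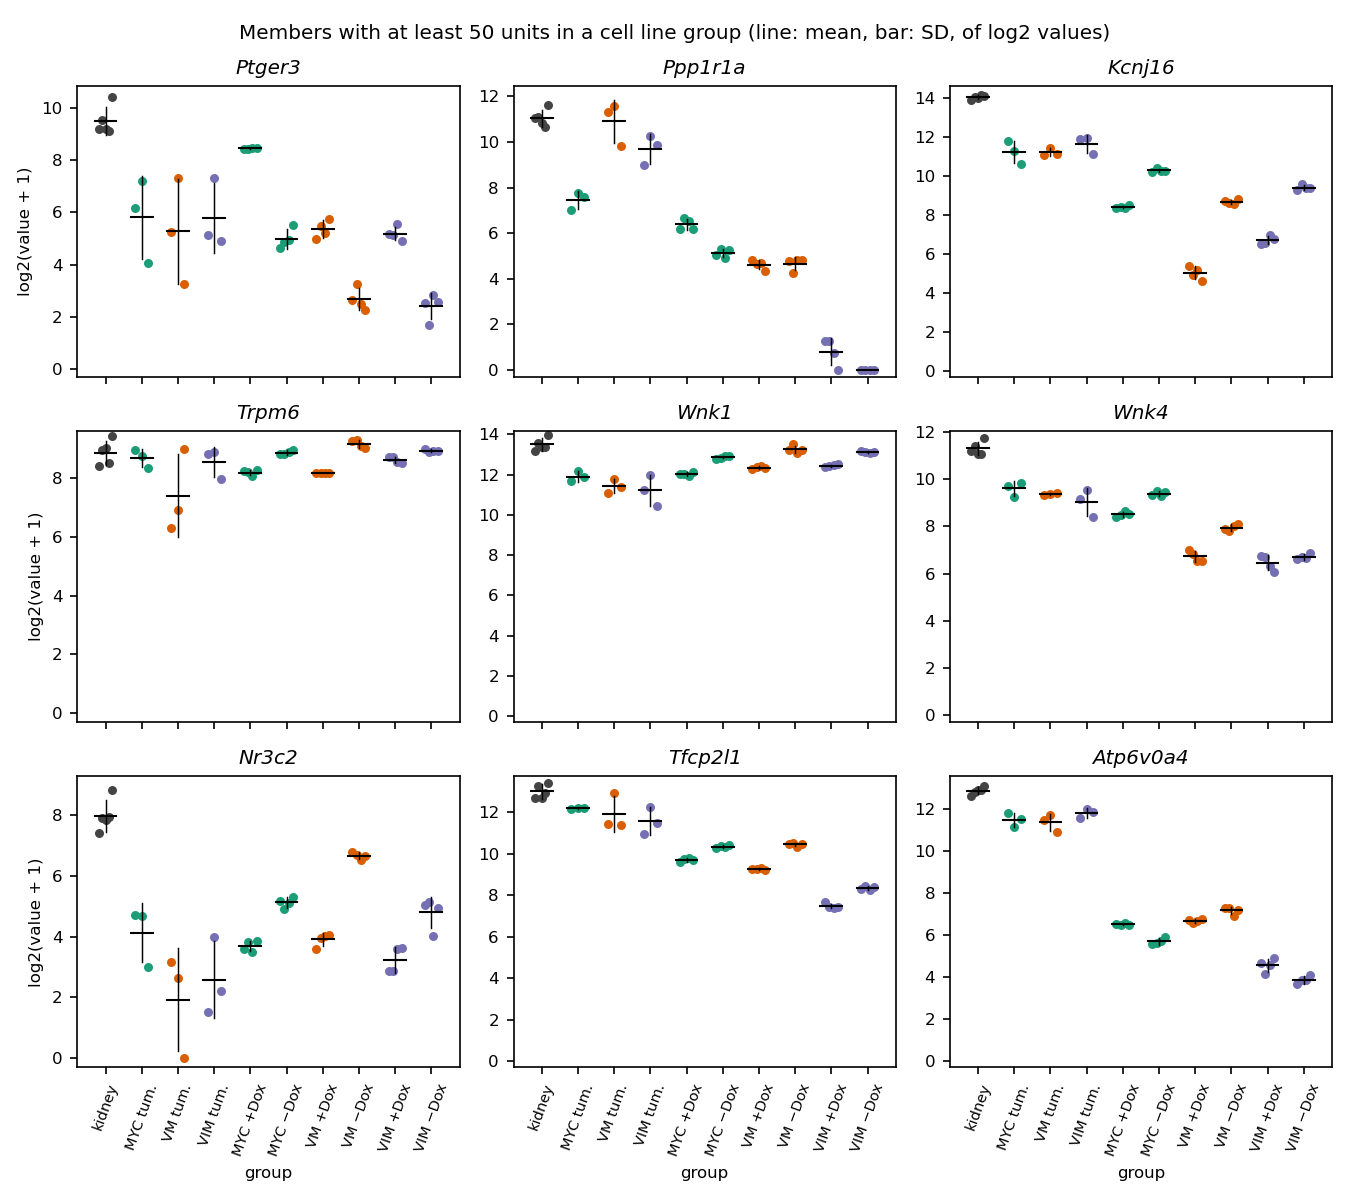
Each panel shows log2(value + 1) of a member whose mean reached 50 units in some cell group, in normal kidney, the 3 tumour genotypes and the 6 cell groups, with points for libraries, a line for the mean and a bar for the SD. Ptger3 is above its no-Dox level with Dox in each line, and Kcnj16 and Nr3c2 are below it.

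With Dox in the medium, 2 members rose and 6 fell among 21 tested in MYC-2983 cells, 1 rose and 8 fell among 23 in VM cells, and 1 rose and 3 fell among 14 in VIM cells. The shares of all genes that passed as higher were 4.49%, 5.92% and 7.67%, and those that passed as lower 15%, 18.9% and 16.6%. The median change of all genes was -0.13, -0.26 and -0.15, and -0.01, -0.04 and -0.01 after TMM rescaling, so changes are relative to a shift of that size. With TMM rescaling the lower share among all genes that passed was 67.5%, 59.5% and 56.5%, against 77.0%, 76.2% and 68.4% without rescaling, and with quantile normalisation it was 57.97%, 51.6% and 50.7%.

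Ptger3 (chr3:157229856-157307722 in mm9) was the only member that rose with Dox in all 3 lines. In MYC-2983 cells it was at 349, 343, 355 and 350.1 units with Dox and 23.6, 28.3, 30.1 and 44.6 without. VM cells held 30.3, 44.3, 36.5 and 52.6 units with Dox against 5.29, 8.53, 4.65 and 3.80, and VIM cells 35.4, 33.97, 45.9 and 29.1 against 4.745, 2.23, 6.12 and 4.98. The Dox and no-Dox libraries did not overlap in any line. Ptger3 was higher by 3.46 in MYC-2983 cells (SE 0.135, adjusted p = 4.94e-14), 2.69 in VM cells (SE 0.254, adjusted p = 2.44e-08) and 2.79 in VIM cells (SE 0.273, adjusted p = 5.62e-09). The differences of this Dox effect between lines were under the size limit, with interactions of -0.77, -0.67 and 0.09 (SE 0.299, 0.308 and 0.385; adjusted p = 0.0411, 0.0777 and 0.881) for VM minus MYC-2983, VIM minus MYC-2983 and VIM minus VM. Ppp1r1a rose in MYC-2983 cells, where it was at 71.6, 99.5, 90.5 and 72.3 units with Dox and 32.2, 38.8, 28.9 and 36.997 without (1.26, SE 0.138, adjusted p = 1.45e-07). In VM cells it was at 19.3 to 27.3 units with Dox and 17.8 to 27.3 without, and the ranges overlapped (-0.04, SE 0.199, adjusted p = 0.856). The interaction between these lines passed (-1.30, SE 0.245, adjusted p = 0.000179). In VIM cells it was at 0 without Dox and at 0 to 1.39 units with it.

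Kcnj16 and Nr3c2 fell with Dox in all 3 lines. Kcnj16 was at 328, 342, 327 and 361 units with Dox in MYC-2983 cells, against 1196, 1375, 1239.6 and 1247 without. In VM cells it was at 40.6, 29.8, 35.7 and 23.7 units with Dox and 422, 397, 377 and 445 without. VIM cells held 90.9, 93.6, 127 and 109.9 units with Dox and 628, 760.3, 682 and 659 without. The libraries with Dox were all below those without, and Kcnj16 fell by 1.89, 3.64 and 2.69 on the log2 scale (SE 0.0444, 0.139 and 0.0915; adjusted p = 5.83e-17, 1.09e-13 and 7.46e-17). The fall was greater in VM than in MYC-2983 cells (interaction -1.75, SE 0.152, adjusted p = 1.06e-08), while the other interactions of Kcnj16, -0.80 and 0.95, stayed under the size limit. Nr3c2 was at 11.2, 13.1, 10.3 and 13.6 units with Dox and 35.4, 29.0, 33.6 and 38.6 without in MYC-2983 cells. VM cells held 11.1, 14.5, 15.3 and 15.8 units against 109, 102, 89.9 and 98.7, and VIM cells 6.25, 6.24, 11.2 and 11.3 against 32.3, 34.6, 15.3 and 29.9. No library with Dox reached a library without it in the same line. Nr3c2 fell by 1.43, 2.75 and 1.56 on the log2 scale (SE 0.169, 0.163 and 0.283; adjusted p = 3.86e-07, 4.09e-11 and 3.8e-05), and the VM fall exceeded that of MYC-2983 cells (interaction -1.31, SE 0.228, adjusted p = 7.23e-05) and of VIM cells (interaction 1.18, SE 0.346, adjusted p = 0.011). The interaction with VIM cells was 0.93, under the size limit, without VIM library 3 off Dox. With quantile normalisation the changes of Nr3c2 were -0.90 in MYC-2983 and -0.98 in VIM cells, and the VM minus MYC-2983 interactions were -0.97 for Kcnj16 and -0.87 for Nr3c2, all under the size limit. With a pseudocount of 10 the change of Nr3c2 in VIM cells was -0.9994, just under it.

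**Figure D5:**
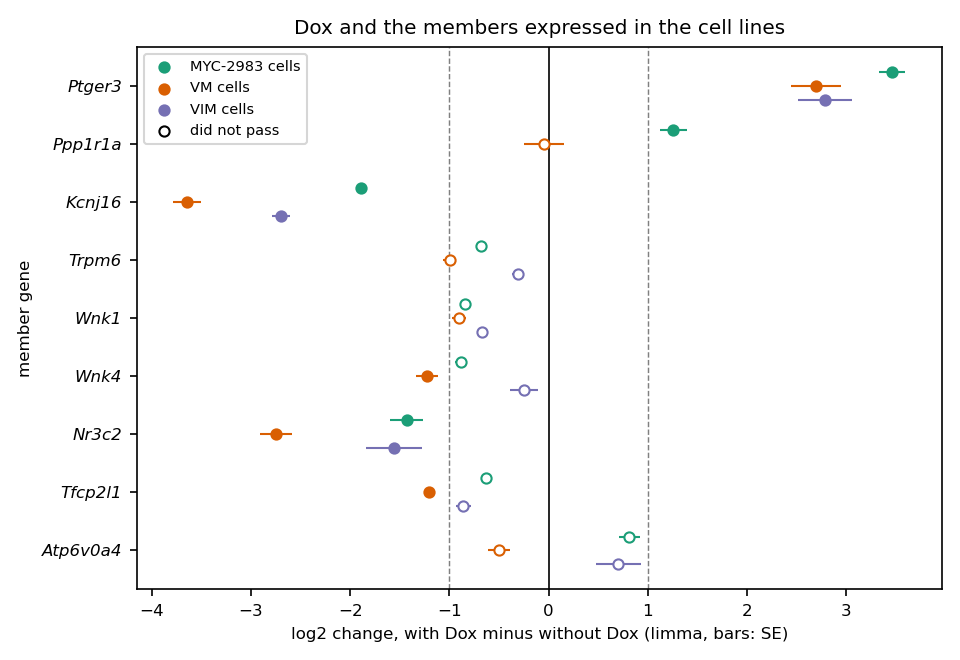
Points give the limma log2 change with Dox against without Dox in MYC-2983, VM and VIM cells for the 9 members with at least 50 units in a cell group, bars the SE, and open circles changes that did not pass. Ptger3 lies to the right of 1 in each line, Kcnj16 and Nr3c2 to the left of -1, and the points for Trpm6 and Wnk1 lie between -1 and 0.

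The other members that passed did so in 1 line each, which does not show that the lines differ. Slc12a3, which was at 24.3, 34.2, 38.8 and 35.4 units in MYC-2983 cells without Dox, was at 0 in all 4 libraries with Dox, at least 19.8-fold lower (adjusted p = 1.1e-12). In VM and VIM cells it was at 0.83 units at most with or without Dox, and its interactions with MYC-2983 cells were 4.96 and 4.86 (SE 0.325 and 0.363; adjusted p = 1.81e-10 and 3.93e-10). Hsd11b2 was at 3.35, 7.07, 2.71 and 5.24 units with Dox in MYC-2983 cells and 26.9, 21.7, 32.4 and 23.9 without, a change of -2.34 (SE 0.249, adjusted p = 9.45e-08). In VM cells the ranges, 2.55 to 6.79 and 0.76 to 7.75 units, overlapped, and the interaction passed (2.90, SE 0.544, adjusted p = 0.000171). Tfcp2l1 was at 603, 605, 628 and 594 units with Dox in VM cells and 1426, 1443, 1296 and 1429.5 without, a change of -1.20 (SE 0.0490, adjusted p = 2.69e-13) that became -0.97 with TMM rescaling. In MYC-2983 and VIM cells its changes of -0.63 and -0.86 were under the size limit, with no overlap between libraries in either line. The change of Wnk4 in VM cells was -1.22 (SE 0.113, adjusted p = 1.99e-08), -0.99 with TMM rescaling and -0.86 with quantile normalisation. In MYC-2983 cells Wnk4 was at 334 to 397 units with Dox and 619.8 to 726 without, with no overlap (-0.89, SE 0.0550, under the size limit), and no interaction of Tfcp2l1 or Wnk4 passed. Atp6v0d2 was at 5.69, 6.69, 6.12 and 8.30 units in VIM cells without Dox and at 0 with it, at least 2.76-fold lower (adjusted p = 3.49e-07). The remaining calls concern low values. They are Fxyd2 and Slc26a4 in MYC-2983 cells, at most 11.97 and 4.35 units, and Slc12a1, Scnn1a, Scnn1g and Slc4a1 in VM cells, at most 8.53, 27.9, 1.76 and 2.71 units. Each of these was lower with Dox, and Scnn1g was at or under the floor in both conditions, so no fold is given for it. The Slc26a4 call was lost without library 1, 2 or 4 with Dox (change -1.095 in each case), and the Scnn1a call without library 1 of VM cells with Dox (-0.95) and with TMM rescaling (-0.86). With a pseudocount of 10 the changes of Fxyd2, Slc26a4, Slc12a1 and Scnn1a, -0.51, -0.25, -0.38 and -0.73, were all under the size limit, and the calls of Slc26a4, Slc12a1 and Scnn1a were also lost with quantile normalisation (-0.94, -0.63 and -0.30).

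Trpm6, Wnk1, Atp6v0a4 and Egf stayed under the size limit with Dox in each line. Trpm6 was at 301, 292, 268 and 308 units with Dox in MYC-2983 cells and 447, 449, 474 and 500.0 without, at 287 to 291 against 521 to 623 in VM cells and at 367 to 417 against 469 to 509 in VIM cells. The libraries with Dox lay below those without in each line, but the changes of -0.68, -0.99 and -0.31 were under the size limit (SE 0.0522, 0.0668 and 0.0564). Wnk1 ran from 3923 to 5798 units with Dox and from 7085 to 11642 without over all lines, and its changes of -0.84, -0.90 and -0.67 likewise did not pass. Atp6v0a4 changed by 0.81 in MYC-2983 cells (86.2 to 94.3 units with Dox, 46.9 to 59.0 without), by -0.50 in VM cells (92.6 to 105 against 119 to 154) and by 0.70 in VIM cells (16.7 to 28.6 against 11.5 to 16.1), none of which passed. The difference of the VM effect from the other lines did pass, with interactions of -1.31 against MYC-2983 cells (SE 0.149, adjusted p = 3.78e-07) and 1.20 for VIM minus VM (SE 0.232, adjusted p = 0.000348), the latter 0.94 with a pseudocount of 10. Egf was at 20.05 to 31.4 and 28.2 to 40.1 units in MYC-2983 cells with and without Dox, and at 15.965 to 21.005 and 6.12 to 13.3 in VIM cells. Its changes of -0.34 and 0.97 did not pass, and their difference did (interaction 1.31, SE 0.303, adjusted p = 0.00103), though not with a pseudocount of 10 (0.85). Across all interactions, 2 members passed as higher and 6 as lower of 27 for VM minus MYC-2983 (3.26% and 5.53% of all genes), 3 and 1 of 24 for VIM minus MYC-2983 (4.54% and 4.52%) and 6 and 1 of 25 for VIM minus VM (3.7% and 2.35%).

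Further distal nephron genes moved with Dox in both directions, 4 higher and 9 lower of 29 in MYC-2983 cells, 2 and 10 of 21 in VM cells and 1 and 6 of 16 in VIM cells. The 3 named here fell in every line and were chosen after their values were seen. Cldn4, a tight junction claudin of the collecting duct, fell by 2.29, 1.99 and 2.84 (SE 0.259, 0.0709 and 0.171; adjusted p = 2.1e-07, 4.65e-14 and 1.5e-12). Sgk1, an aldosterone-induced kinase that activates sodium transport, fell by 1.32, 1.40 and 2.13 (SE 0.0400, 0.104 and 0.0637), and Gata3, a transcription factor of the collecting duct lineage, by 1.40, 2.17 and 2.06 (SE 0.155, 0.400 and 0.249). Proliferation genes passed as higher with Dox for 1, 5 and 7 of 8. Stromal genes summed to 16015 to 18806 units with Dox and 67888 to 72316 without in MYC-2983 cells, 88.3 to 113 and 637 to 719 in VM cells and 498 to 680 and 4857 to 5394 in VIM cells. Their part in the change of the members was not tested.

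Between lines kept on Dox, VM cells had 2 members higher and 6 lower than MYC-2983 cells of 22 tested, at background shares of 6.54% and 18.1%. VIM cells had 1 higher and 9 lower than MYC-2983 cells of 17 (5.66% and 18.3%), and 2 higher and 7 lower than VM cells of 18 (9.69% and 9.45%). Tfcp2l1 was lowest in VIM cells, at 168 to 199.9 units, against 594 to 628 in VM and 771 to 884 in MYC-2983 cells, with no overlap. Its change in VIM cells was -2.23 against MYC-2983 cells (SE 0.0624, adjusted p = 4.16e-13) and -1.77 against VM cells (SE 0.0636, adjusted p = 4.76e-13). Atp6v0a4 was also lowest in VIM cells, with -1.95 against MYC-2983 cells (SE 0.154, adjusted p = 3.2e-08) and -2.10 against VM cells (SE 0.162, adjusted p = 7.33e-09). Ptger3 was highest in MYC-2983 cells, and its change was -3.09 in VM cells (SE 0.136, adjusted p = 1e-10) and -3.26 in VIM cells (SE 0.116, adjusted p = 5.01e-12) against them, while VM and VIM cells overlapped (-0.17, SE 0.194, adjusted p = 0.464). Slc12a1 was higher in VIM cells, at 14.6, 8.32, 11.8 and 7.27 units, than in MYC-2983 cells, at 1.05 units at most (2.75, SE 0.270, adjusted p = 3.51e-07; 0.93 with a pseudocount of 10). Each line is 1 tumour, so a difference between lines cannot be told apart from a difference between those tumours. Estimated depth with Dox also differed, at 24.8 to 26.9 M reads in MYC-2983, 14.4 to 17.3 M in VM and 15.9 to 19.9 M in VIM cells. Whether the lines were sequenced together is not stated.

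Cells with Dox were also set against tumours of the same genotype. The number 2983 of the MYC line is also that of the mouse of MYC tumours 2 and 3, and VM-3055 carries the mouse number 3055 of VM tumour 2, so that cells and tumours may share mice, while the fits treated them as independent. In MYC-2983 cells 1 member was higher and 20 lower than in MYC tumours of 35 tested, at background shares of 11.4% and 27%. VM cells had 1 higher and 7 lower of 29 (12.3% and 28.4%), and VIM cells 1 higher and 20 lower of 35 (13.3% and 32.6%). Of the members tested, 8 in MYC-2983 and 14 in VIM cells were at 0 in every cell library with Dox. For 7 of the VM members tested, the cells or the tumours were at 0. Such members entered the test through the other group alone and could pass in 1 direction only. Without VM tumour 2 or without VM tumour 3, the VM count of 8 became 12, and the share of all genes in those fits is not given here. The members higher in cells were Ptger3 in MYC-2983 cells (2.19, SE 0.0964, adjusted p = 2.12e-05), Nr3c2 in VM cells (1.98, SE 0.721, adjusted p = 0.0406) and Wnk1 in VIM cells (1.23, SE 0.317, adjusted p = 0.0101). The Nr3c2 call was lost without any of the 4 VM cell libraries (1.93 to 2.09), and the Wnk1 call without VIM tumour 3 (0.83). Kcnj16 was lower in cells of each genotype, with differences of -2.99, -6.19 and -4.94 (SE 0.205, 0.210 and 0.231; adjusted p = 7.55e-05, 4.8e-07 and 1.56e-06). Atp6v0a4 differed by -5.05, -4.69 and -7.23. Fxyd2 differed by -7.53 in MYC-2983 cells and was at least 757-fold lower in VIM cells, which were at 0. In VM cells it was at or under the floor in all 4 libraries, so it passed there as lower but no size is given. Atp6v0d2 was at 0 in all 12 cell libraries with Dox and at least 44.4-fold, 30.3-fold and 239-fold below the MYC, VM and VIM tumours. Trpm6 did not pass in any genotype, with differences of -0.57, 0.77 and 0.06 (SE 0.127, 0.550 and 0.228). Markers of other cells differed too, in the order MYC-2983, VM and VIM cells. Leukocyte and macrophage genes were lower in the cells for 8 of 9, 7 of 9 and 7 of 8. Endothelial genes were lower for 6, 7 and 7 of 8 and higher for 1 each. Stromal genes were lower for 7 of 8 in each line and higher for 1, 0 and 0. The part of these other cells in the differences of the members, Atp6v0d2 among them, was not tested.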

How the data were processed

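RNA-seq was done on mouse kidney, tumours and tumour cell lines with a stranded mRNA kit. The deposited values are a signal per gene: the authors aligned reads to mm9 with MapSplice, profiled alignments with Picard 1.64, sorted and indexed them with SAMtools, filtered out indels, large inserts and reads of no mapping quality with UBU, quantified UCSC known genes with RSEM and scaled each library's upper quartile to 1000. The strand setting of the counting is not given in the sources used here. The table holds no counts. The worth of 1 read was estimated from low values, of which 94.1% to 95.9% per library were whole within 0.02 reads, and 3 reads served as a floor for counting error only. Sizes are on the log2(value + 1) scale, which understates the change of low genes. Tests were two-sided with limma 3.58.1 (lmFit and eBayes with trend, R 4.3.3) on that scale, with Benjamini-Hochberg adjustment over all genes tested. A gene was tested if above 0 in at least 2 libraries for tissue comparisons and 4 for cells only, and passed at an adjusted p under 0.05 with a change over 1. These libraries could all be of 1 group, and a gene at 0 in the other group could then pass in 1 direction only. Only the groups compared entered a fit, and the interactions used the 4 groups of both lines. Means over libraries and figures were made with Python 3.11.15 and matplotlib 3.10.9. Scripts were tested on simulated data. Alternatives were pseudocounts of 0.1 and 10, no filter, a mean of at least 10 units, TMM rescaling, quantile normalization, limma voom on estimated reads, wider fits, kidney prefixes, a replicate block and leaving out each library. The members and all gene lists were chosen with earlier results of these data known. Named members are the 3 highest in kidney of each segment, any higher in tumours, any passing between tumours, and those whose mean reached 50 units in a cell group. Gene positions are those of GENCODE vM1 on mm9, promoters those of RefSeq on GRCm38.p6. Of the marker lists, kidney epithelium had 1 gene higher in each genotype and 3, 4 and 4 lower of 6 in MYC, VM and VIM tumours. In the chosen lists, 4 listed genes were not found by symbol and were not used here.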

Additional observations from a re-analysis of the deposited data

Results flagged for a closer look

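A library far from the others was sought in 56 pairs of a named member and a group of 4 or 5 libraries, with a mean of at least 50 units. Such a library was found in 6 pairs. Chance gives about 1 in 20 for a single pair of normally spread values. The pairs share libraries and are not independent, so the count was not set against that rate. In normal kidney the library was number 5 in each case. There Ptger3 was at 1359.9 units with the next library at 747, Hsd11b2 at 4212.5 with the next at 2387, Nr3c2 at 455.41 with the next at 244, Atp6v0d2 at 1272.6 with the next at 806, and Atp6v1b1 at 2815.9 with the next at 1793. In VM cells without Dox, Tfcp2l1 was at 1296.1 units in library 3, below the 1426 to 1443 of the others.

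The Dox effect differed between lines for 14 member and line pairs by the interaction test of limma (adjusted p under 0.05, size over 1). For VM minus MYC-2983 cells the differences on the log2 scale were -1.30 for Ppp1r1a, 4.96 for Slc12a3, -1.75 for Kcnj16, 2.90 for Hsd11b2, -1.31 for Nr3c2 and -1.31 for Atp6v0a4. For VIM minus MYC-2983 cells they were 1.31 for Egf, 4.86 for Slc12a3, 2.09 for Hsd11b2 and -2.14 for Atp6v0d2. For VIM minus VM cells they were 1.20 for Egf, 1.18 for Nr3c2, -2.50 for Atp6v0d2 and 1.20 for Atp6v0a4. The VIM minus VM call for Egf was lost with a pseudocount of 0.1 or 10, without a filter, with TMM rescaling, with quantile normalisation and without any of 12 single libraries (1.02 to 1.22, adjusted p = 0.0534 to 0.0866). The VIM minus MYC-2983 call for Hsd11b2 was lost with a pseudocount of 0.1 (2.16), quantile normalisation (1.70) and voom (1.85). The sizes for Slc12a3 and Atp6v0d2 rest on groups at 0 and on the value of 1 added before the log.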

How the results depend on the processing

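Of 2637 values of named members under alternatives, 2487 kept their direction and call, 150 kept the direction and lost the call, and 0 reversed. Only changes that passed in the main fit entered this count, which by itself makes a reversal unlikely. Of 321 counts of passing members over 18 comparisons, 289 stayed within 1.5 times. The shares of all genes that passed under each alternative are not given here. The counts under alternatives below therefore describe the members only, and were not set against all genes. Between tumours, 1 fit of all 4 tissue groups gave 2 members for VM against MYC, 3 for VIM against MYC and 4 for VIM against VM, where the separate fits gave 0, 0 and 1. Taking the 2 libraries of mouse 2983 as separate samples gave 1 for VM against MYC. The single VIM against VM call became 0 with a pseudocount of 0.1 or 10, a mean of at least 10 units, TMM rescaling, quantile normalization, voom and without the libraries that stand apart (chosen after seeing the data). With a pseudocount of 10, the Dox counts were 5 in VM cells (9) and 2 in VIM cells (4), the counts between lines 4 for VM against MYC-2983 (8) and 4 for VIM against VM (9), and the VIM minus VM interaction 1 (7). With a mean of at least 10 units, the counts were 4 for VM against MYC-2983 cells (8), 6 for VIM against MYC-2983 (10), 4 for VIM against VM (9), 13 for MYC-2983 cells against MYC tumours (21), and 5, 1 and 3 for the interactions VM minus MYC-2983 (8), VIM minus MYC-2983 (4) and VIM minus VM (7). This filter tests fewer low genes, and for the other changes the cause was not tested.

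Leaving out 1 library gave, against kidney, 33 to 35 members in MYC (34), 33 to 36 in VM (36) and 31 to 34 in VIM tumours (34). Between tumours it gave 0 to 0 for VM against MYC, 0 to 0 for VIM against MYC and 0 to 0 for VIM against VM. With Dox it gave 6 to 8 in MYC-2983 (8), 8 to 9 in VM (9) and 3 to 5 in VIM cells (4). Between lines it gave 7 to 8 (8), 9 to 10 (10) and 8 to 9 (9). Cells against tumours gave 16 to 20 in MYC (21), 7 to 12 in VM (8) and 19 to 26 in VIM (21). The interactions gave 8 to 9 (8), 4 to 6 (4) and 3 to 7 (7), the 3 without VIM library 3 off Dox. Where 1 MYC mouse was left, it was assumed to vary like the other group. The replicate block gave 9 members for Dox in VM cells, 4 in VIM cells, 9 for VIM against VM cells and 5 for their interaction (7 without it). Same-numbered libraries had mean correlations of -0.0735, 0.00892 and 0.0249 in the first 3, and 0, 2 and 1 of 4 correlated best with their own number. No pairing by number was seen, though correlations of so few libraries cannot exclude one. MYC-2983 libraries carry no number in the labels. Depth limits members at or under 3 reads, 20 of 37 in VM tumours and up to 26 in a cell group.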
